A study of Homo sapiens with 6 samples.

Results

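The negative feedback genes of Wnt signalling were followed in AGS cells after silencing of CTNNB1, the gene of beta-catenin. They are AXIN2, NKD1, NKD2, RNF43, ZNRF3, NOTUM, SP5, DKK1, DKK4 and APCDD1, known targets of beta-catenin that restrain the pathway. Each of the 10 genes was paired with 1 transcript cluster, the unit for which the array gives 1 value, among 18417 genes with a tested cluster. The members were named by what is known of the pathway, at a time when earlier results of these data were known. AGS is a human gastric adenocarcinoma line known to carry a stabilising mutation in CTNNB1. One group (3 arrays) received non-targeting control siRNA and the other (3 arrays) received CTNNB1 siRNA, with all cells grown in the same serum-containing medium and RNA taken 48 hours after transfection. Both come from 1 cell line, the replicates are titled biological, and nothing says that they were separate passages or days, so p-values measure only the spread between these samples.

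In Wnt signalling, beta-catenin escapes a cytoplasmic destruction complex, enters the nucleus and switches on genes together with TCF/LEF factors bound to DNA. Several of those genes encode proteins that damp the signal again, at the ligand, at the receptor, in the cytoplasm and in the nucleus. AXIN2 is the reporter gene most often read for the activity of the pathway, and RNF43 and ZNRF3 are known as brakes on Wnt receptors in the gut epithelium.

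The RefSeq promoter table (GRCh38.p14) held windows for 5 members: SP5, DKK1, RNF43, NKD2 and APCDD1. The 250 bases before each start were searched on both strands for the TCF/LEF core, taken as CTTTG followed by AA, by AT, by TA or by TT, with overlapping matches allowed. SP5 and DKK1 held matches and are shown for that reason, 5′ to 3′ on the gene's strand, with the matches in capitals.
SP5, chr2:170715087-170715336, plus strand: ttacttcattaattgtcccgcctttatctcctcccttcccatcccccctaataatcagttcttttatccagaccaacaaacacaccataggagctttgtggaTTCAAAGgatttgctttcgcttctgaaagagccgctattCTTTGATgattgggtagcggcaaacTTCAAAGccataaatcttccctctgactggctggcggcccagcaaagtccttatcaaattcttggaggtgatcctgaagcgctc
DKK1, chr10:52314031-52314280, plus strand: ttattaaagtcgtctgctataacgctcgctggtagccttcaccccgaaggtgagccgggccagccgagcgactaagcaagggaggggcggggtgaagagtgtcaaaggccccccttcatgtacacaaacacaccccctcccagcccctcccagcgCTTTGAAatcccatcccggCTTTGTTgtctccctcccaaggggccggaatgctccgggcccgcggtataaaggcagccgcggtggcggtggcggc
The SP5 window held 3 matches, beginning 148, 109 and 84 bases before the start, of which the outer pair lay on the minus strand. The DKK1 window held 2, beginning 95 and 76 bases before the start. Of 35116 promoter windows of this length, 12.0% held at least 1 match, 1.21% at least 2 and 0.122% at least 3. These letters were not in the windows of RNF43 (which has 2 starts in the table), NKD2 and APCDD1.

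Across the arrays, median log2 expression lay between 5.38 and 5.46. CTNNB1 siRNA replicate 1 stood apart, with a Pearson correlation of 0.962 to 0.965 with the other arrays across 33297 clusters, against 0.983 to 0.988 among the remaining pairs. CTNNB1 read 11.92, 11.76 and 11.75 on control replicates 1 to 3 and 10.27, 10.78 and 10.58 on silenced replicates 1 to 3, as the arrays with CTNNB1 siRNA are called here. All 3 silenced arrays were below all 3 controls, with 41.6% of the control level left (95% interval 31.8% to 54.2%; limma adjusted p = 0.232). Epithelial markers were high as a list: 7 of 8 had a cluster, and their mean level was 9.71 to 9.86 on controls. The same 7 markers were all higher on average after CTNNB1 siRNA, with a list mean of 10.06 to 10.48. Of them 0 passed limma, and 2 (KRT19 and CLDN4) had an unadjusted p under 0.05, against 3.04% of all clusters, higher. In 3 of the 7 the groups were apart and higher, against 6.81% of all clusters. These were KRT19 (log2 difference 0.96, SE 0.36), CLDN4 (0.67, SE 0.24) and ELF3 (0.33, SE 0.15). CDH1 hardly differed, at 6.84 and 6.86 in control and CTNNB1 siRNA cells. Its log2 difference was 0.016 (SE 0.22), and -0.16 to 0.25 with an array left out. Of markers of other cell types, 6 of 8 fibroblast, 6 of 6 endothelial and 6 of 8 immune genes lay among the dimmest 40% of clusters, such as PTPRC, the pan-leukocyte antigen gene (2.68 and 2.70 in control and CTNNB1 siRNA cells). The exceptions were the collagen gene COL1A1 (6.56 and 6.92, groups apart), the receptor gene PDGFRA (7.38 and 7.19), the lysosomal gene CD68 (8.01 and 8.54) and NKG7 (5.94 and 5.95). Among the dim markers, PECAM1, an endothelial adhesion gene, was higher on every silenced array (3.61 and 4.01), as was the immune marker CD3E (3.64 and 3.71). The endothelial markers VWF (4.30 and 4.15) and KDR (3.83 and 3.70) were lower on every silenced array. Of these lists 0 markers passed limma, and PECAM1 and CD68, both higher, had an unadjusted p under 0.05, against 3.04% of all clusters, higher. Groups were apart and higher for 1 of 8 fibroblast, 1 of 6 endothelial and 1 of 8 immune markers, against 6.81% of all clusters. They were apart and lower for 2 of 6 endothelial markers and for 0 of the fibroblast and immune markers, against 6.8% of all clusters. The list means were 4.75 to 4.90 and 4.88 to 4.92 for fibroblast markers, 3.83 to 3.95 and 3.81 to 4.09 for endothelial markers, and 4.55 to 4.69 and 4.44 to 4.86 for immune markers. The part of these shifts in the results below was not tested.

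Of the 10 feedback genes, 8 were lower on average after CTNNB1 siRNA and 2 were higher, and for AXIN2, ZNRF3 and DKK1 every CTNNB1 siRNA array lay below every control array. Their differences, written throughout as CTNNB1 siRNA minus control siRNA on the log2 scale, were -0.45, -0.58 and -0.64, so that 64.0% to 73.0% of the control level was left. NKD1, SP5 and RNF43 differed by -0.49, -0.30 and -0.22 with overlapping groups, while NOTUM, NKD2, APCDD1 and DKK4 lay between -0.12 and 0.18. None of the members passed limma over the 19460 clusters tested (0 of 10 at an adjusted p under 0.05; lowest 0.816), and 3 of 10, all lower, had an unadjusted p under 0.05. The test called 0.00514% of all clusters (0% lower). An unadjusted p under 0.05 was held by 5.64% of all clusters, 2.6% lower and 3.04% higher. Groups were apart and lower for 3 of 10 members, against 6.80% of all clusters. The members' median difference was -0.26, beside -0.0045 over all clusters, of which 50.8% were lower. In bulk cells, fewer cells expressing a gene and less RNA per cell cannot be told apart.

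**Figure D1:**
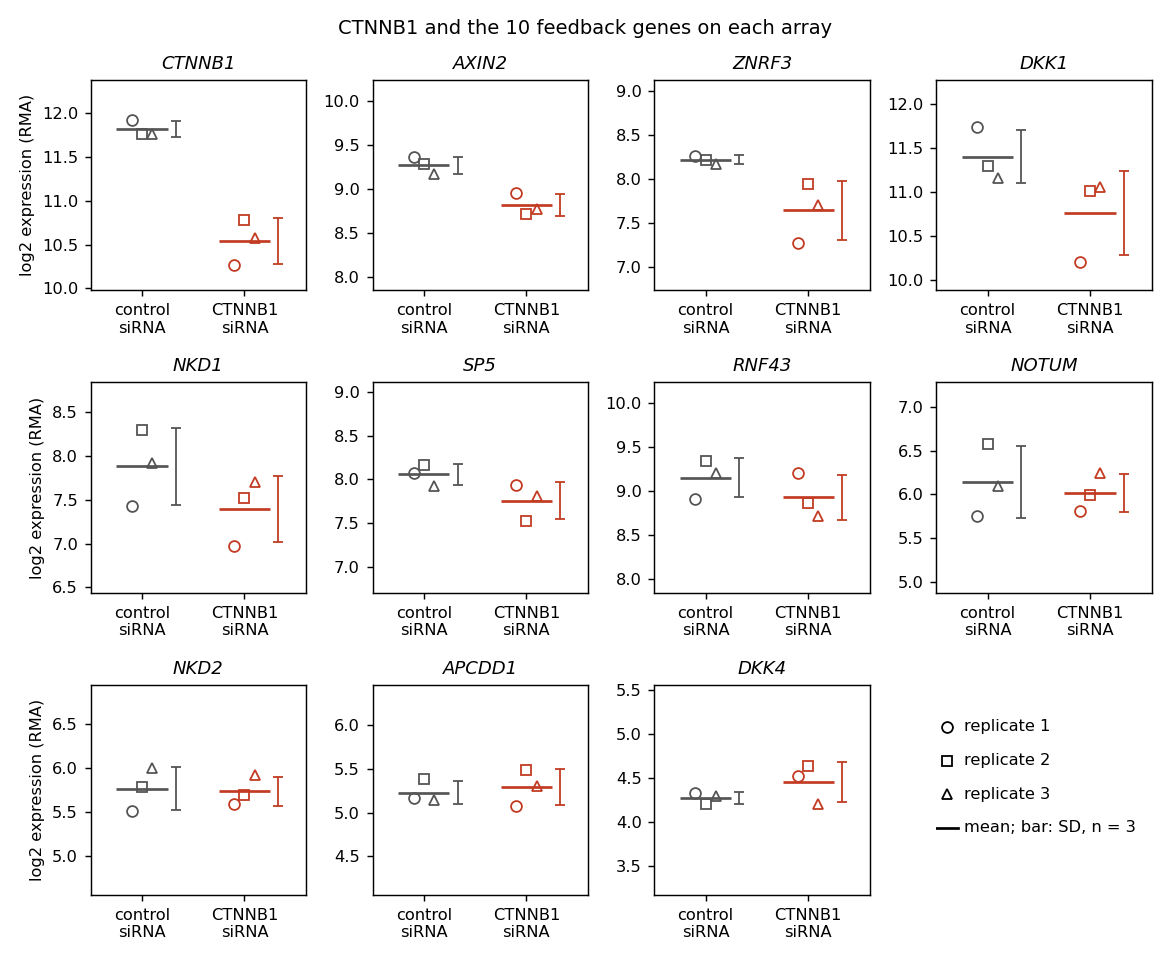
Log2 expression (vertical axis, RMA values) of CTNNB1 and the 10 feedback genes on each array, by siRNA (horizontal axis). Symbols mark the replicate number, horizontal lines the group mean and bars the SD of 3 arrays; every panel spans the same log2 range, and the groups are apart for CTNNB1, AXIN2, ZNRF3 and DKK1.

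AXIN2 encodes the scaffold of the destruction complex on which beta-catenin is marked for degradation. It read 9.36, 9.28 and 9.17 on control replicates 1 to 3 and 8.96, 8.72 and 8.77 on silenced replicates 1 to 3. The highest silenced array was thus below the lowest control array, and the arrays within each group lay close together. The means were 9.27 ± 0.096 (SD, n = 3) and 8.82 ± 0.13 (SD, n = 3), and the difference of -0.45 (SE 0.14, 95% interval -0.77 to -0.13) left 73.0% of the control level. In limma the unadjusted p was 0.0115 and the adjusted p 0.816, and the 2-sided exact permutation p was 0.1, the smallest that 3 arrays against 3 can give. Of all clusters, 4.83% had a difference as low or lower. The difference stayed between -0.52 and -0.41 when any 1 array was left out.

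NKD1 and NKD2 encode the Naked cuticle proteins, which bind Dishevelled and hold back its signalling. NKD1 read 7.42, 8.30 and 7.92 on the controls and 6.97, 7.52 and 7.70 after CTNNB1 siRNA. Control replicate 1 was below silenced replicates 2 and 3, so the groups overlapped. The means were 7.88 ± 0.44 (SD, n = 3) and 7.39 ± 0.38 (SD, n = 3), with a difference of -0.49 (SE 0.27, 95% interval -1.10 to 0.13). Leaving out CTNNB1 siRNA replicate 1 gave -0.27, and leaving out control replicate 2 gave -0.28. Leaving out control replicate 1 gave -0.71, with the groups apart and lower, as for 12.4% of all clusters in those 5 arrays. In limma the unadjusted p was then 0.0294 and the adjusted p 0.937.

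NKD2 read 5.51, 5.78 and 6.00 on the controls and 5.58, 5.69 and 5.92 after silencing, with fully overlapping groups. Its difference was -0.032 (SE 0.17), and its interval of -0.43 to 0.37 leaves room for a change in either direction. The log2 gap of NKD1 over NKD2 within an array, whose size depends on the probes, was 1.92 to 2.52 on controls and 1.39 to 1.82 after CTNNB1 siRNA. It was smaller on every silenced array than on any control, a change of -0.45 (2-sided exact permutation p = 0.1, the smallest possible). In all 4 such gaps between related genes were compared, and those with p = 0.1 had 0.2 after Benjamini-Hochberg adjustment over them in this exact permutation test.

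RNF43 and ZNRF3 encode membrane E3 ubiquitin ligases that remove Frizzled receptors from the cell surface. ZNRF3 read 8.27, 8.22 and 8.17 on the controls and 7.28, 7.94 and 7.71 after CTNNB1 siRNA. The controls spanned 0.10 and the silenced arrays 0.67, all of the latter lower. The means were 8.22 ± 0.050 (SD, n = 3) and 7.64 ± 0.34 (SD, n = 3), a difference of -0.58 (SE 0.19, 95% interval -1.01 to -0.15) that left 67.0% of the control level. In limma the unadjusted p was 0.0148 and the adjusted p 0.816. Without CTNNB1 siRNA replicate 1 the difference was -0.39.

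RNF43 read 8.91, 9.34 and 9.21 on the controls and 9.21, 8.87 and 8.72 after CTNNB1 siRNA. Silenced replicate 1 lay among the controls, while silenced replicates 2 and 3 lay below all of them. The difference was -0.22 (SE 0.19, 95% interval -0.65 to 0.21). It was -0.36 without CTNNB1 siRNA replicate 1, when the groups were apart and lower, as for 12.5% of all clusters in those 5 arrays. The difference was -0.34 without control replicate 1, -0.12 without control replicate 2 and -0.11 without CTNNB1 siRNA replicate 3. The gap of ZNRF3 to RNF43 within an array was -1.94 on silenced replicate 1 and -0.93 and -1.01 on silenced replicates 2 and 3, against -0.64, -1.12 and -1.04 on the controls, so the gap overlapped between the groups (2-sided exact permutation p = 0.6).

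APCDD1 encodes a membrane glycoprotein that inhibits Wnt signalling at the receptor. It read 5.16, 5.38 and 5.14 on the controls and 5.07, 5.48 and 5.30 after silencing, with overlapping groups. The difference was 0.060 (SE 0.16, 95% interval -0.31 to 0.42). Its mean lay below 5.36, under which the dimmest 40% of clusters fall and where RMA compresses differences towards 0, so a small difference there does not show that the gene was unchanged.

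DKK1 and DKK4 encode secreted Dickkopf proteins, which block the LRP5/6 co-receptors. DKK1 read 11.74, 11.29 and 11.16 on the controls and 10.20, 11.01 and 11.05 after CTNNB1 siRNA. All silenced arrays were lower, but replicates 2 and 3 came close to the lowest control, and replicate 1 was far below both. The means were 11.40 ± 0.30 (SD, n = 3) and 10.75 ± 0.48 (SD, n = 3), with a difference of -0.64 (SE 0.26, 95% interval -1.25 to -0.039) and 64.0% of the control level left. The unadjusted p in limma was 0.0396 and the adjusted p 0.816, and 1.43% of all clusters had a difference as low or lower. Without CTNNB1 siRNA replicate 1 the difference was -0.37, and with arrays weighted by quality it was -0.34. The unadjusted p in limma was 0.067 to 0.141 without control replicate 1, control replicate 2 or CTNNB1 siRNA replicate 1, with the replicate block and with array weights, and the 95% interval then included 0.

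DKK4 read 4.32, 4.20 and 4.29 on the controls and 4.52, 4.63 and 4.20 after silencing. It was the member with the highest difference, 0.18 (SE 0.16, 95% interval -0.18 to 0.54), and was among the dimmest 40% of clusters. Silenced replicate 3 lay within the controls; without it the difference was 0.31 and the groups were apart and higher, as for 10.3% of all clusters in those 5 arrays, and without silenced replicate 2 the difference was 0.092.

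NOTUM encodes a secreted enzyme that strips the lipid from Wnt proteins and so inactivates them. It read 5.75, 6.57 and 6.10 on the controls and 5.82, 5.99 and 6.25 after CTNNB1 siRNA. The controls alone spanned 0.82, more than the silenced arrays (0.43), and the groups overlapped. The difference was -0.12 (SE 0.23, 95% interval -0.65 to 0.40), -0.32 without control replicate 1, -0.022 without CTNNB1 siRNA replicate 1 and 0.094 without control replicate 2, so its sign rests on that control array.

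SP5 encodes a zinc-finger transcription factor of the nucleus that represses other Wnt target genes, and its promoter window held the 3 TCF/LEF core matches printed above. It read 8.08, 8.17 and 7.92 on the controls and 7.94, 7.53 and 7.81 after CTNNB1 siRNA. Control replicate 3 was just below silenced replicate 1, and silenced replicates 2 and 3 were below every control. The means were 8.06 ± 0.12 (SD, n = 3) and 7.76 ± 0.21 (SD, n = 3), a difference of -0.30 (SE 0.16, 95% interval -0.66 to 0.068). Without CTNNB1 siRNA replicate 2 it was -0.18. It was -0.39 without CTNNB1 siRNA replicate 1 and -0.36 without control replicate 3. In both of these the groups were apart and lower, as for 12.5% and 10.9% of all clusters.

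**Figure D2:**
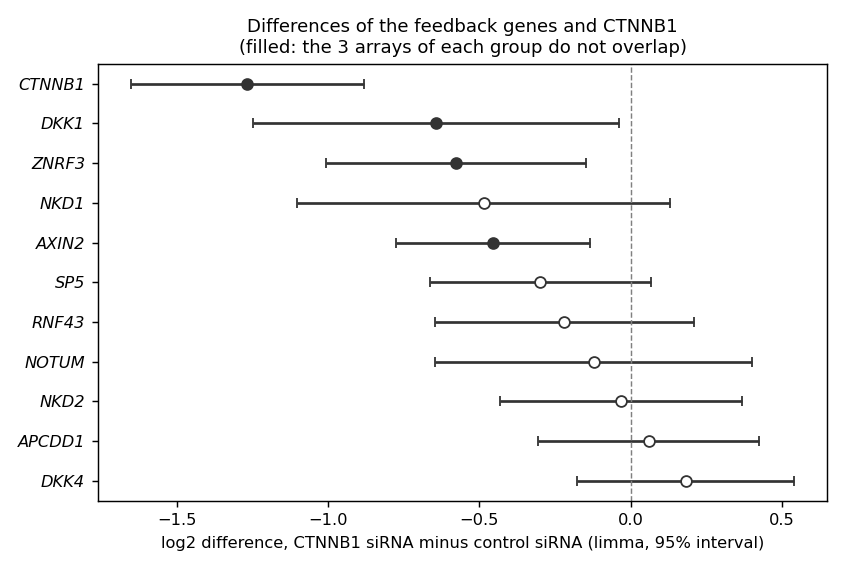
Log2 difference of each feedback gene and of CTNNB1 (horizontal axis, CTNNB1 siRNA minus control siRNA) with its 95% interval from limma. Filled points mark genes whose groups of 3 arrays do not overlap; the intervals of AXIN2, ZNRF3 and DKK1 lie below 0, before any adjustment for the number of clusters tested, and those of the other 7 members include 0.

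Set side by side by array, the members did not share 1 order of the silenced replicates. CTNNB1 itself deviated from its control mean by -1.54, -1.03 and -1.23 on silenced replicates 1 to 3. DKK1 (-1.19, -0.39 and -0.35), ZNRF3 (-0.94, -0.28 and -0.51) and NKD1 (-0.91, -0.37 and -0.18) were lowest on replicate 1, the array that stood apart. So were NOTUM (-0.32, -0.15 and 0.11), NKD2 (-0.18, -0.068 and 0.15) and APCDD1 (-0.15, 0.26 and 0.076). DKK4 (0.25, 0.36 and -0.068) was lowest on replicate 3, not on replicate 1. AXIN2 (-0.31, -0.55 and -0.50), SP5 (-0.12, -0.53 and -0.25) and RNF43 (0.062, -0.28 and -0.44) were highest on silenced replicate 1. The mean deviation of all 10 members was -0.38, -0.20 and -0.20 on silenced replicates 1 to 3 and -0.085, 0.12 and -0.031 on the controls. On the silenced arrays 8, 8 and 7 members were below their control mean, and on the controls 5, 2 and 6. The controls define that mean, so each gene's control deviations must lie on both sides of 0, unlike those of the silenced arrays.

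**Figure D3:**
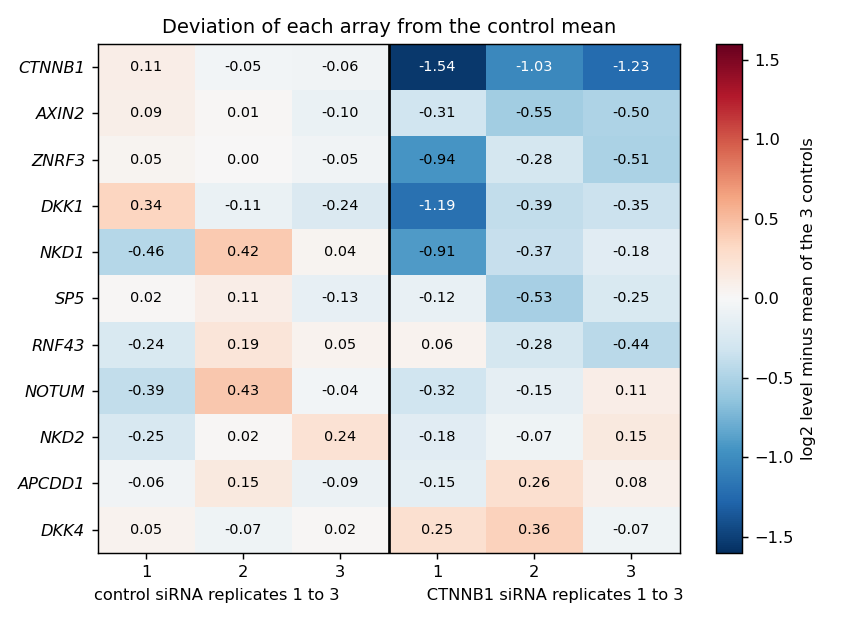
Deviation of each array (columns, replicates 1 to 3 of each siRNA) from the mean of the 3 controls (colour and printed value, log2) for CTNNB1 and the 10 members (rows). On CTNNB1 siRNA replicate 1 DKK1, ZNRF3 and NKD1 have deviations of -1.19 to -0.91, while RNF43 is at 0.062.

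Without CTNNB1 siRNA replicate 1, 5 of 10 members had groups apart and lower (AXIN2, ZNRF3, DKK1, RNF43 and SP5), against 12.5% of all clusters in the same 5 arrays. The members' median difference was then -0.32. Still 0 of 10 passed limma (lowest adjusted p = 0.514). AXIN2, ZNRF3 and SP5 had an unadjusted p under 0.05, against 7.34% of all clusters, and DKK1 no longer did (0.0802).

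**Figure D4:**
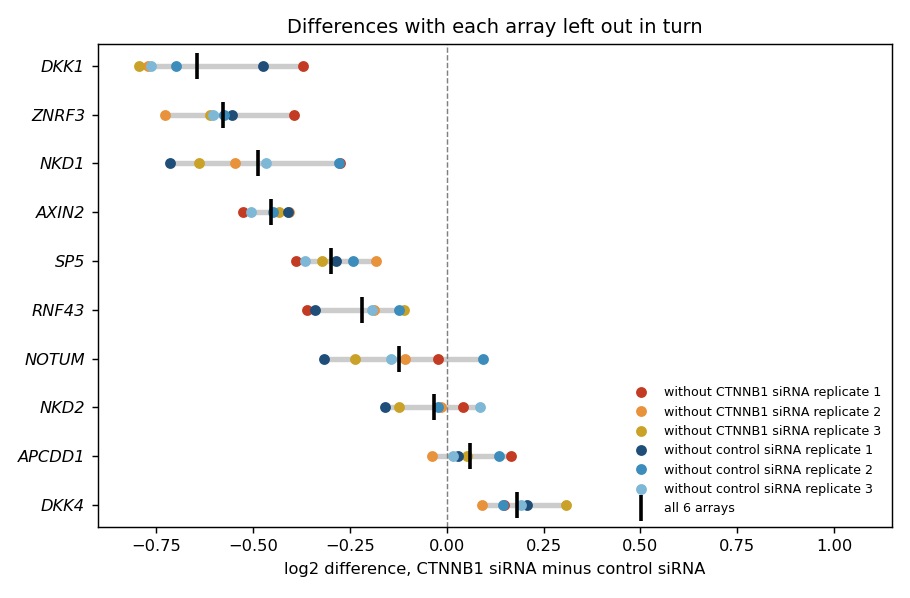
Log2 difference (horizontal axis, CTNNB1 siRNA minus control siRNA) of each member with all 6 arrays (black bar) and with each array left out in turn (coloured points). AXIN2 moves between -0.52 and -0.41, DKK1 between -0.79 and -0.37, and NOTUM, NKD2 and APCDD1 have values on both sides of 0.

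Genes related to the members by sequence gave a comparison within the same families. Of 16 such paralogues 15 had a cluster; 9 were lower and 6 higher, with a median difference of -0.066, and 0 passed limma (0 at an unadjusted p under 0.05). AXIN1, the constitutive scaffold of the destruction complex, averaged 7.24 ± 0.21 (SD, n = 3) and 7.14 ± 0.033 (SD, n = 3), a difference of -0.098 (SE 0.15). The log2 gap of AXIN2 over AXIN1 within an array was 2.04, 1.88 and 2.17 on the controls and 1.85, 1.54 and 1.63 after CTNNB1 siRNA. It was smaller on every silenced array, with a mean change of -0.36 (2-sided exact permutation p = 0.1, the smallest possible). DKK3, a divergent Dickkopf gene, differed by -0.13 (SE 0.15) and APCDD1L by 0.018 (SE 0.15). The gap of DKK1 over DKK3 overlapped between groups (change -0.52; 2-sided exact permutation p = 0.4). SP2 was the 1 paralogue of 15 with groups apart (lower), against 6.80% of all clusters. Its difference was -0.36 (SE 0.21), and -0.51 to -0.12 with an array left out. ZNRF2 had the highest difference, 0.45 (SE 0.32), and 0.067 to 0.65 with an array left out.

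Other known target genes of beta-catenin had a median difference of -0.18, with 19 of 31 measured genes lower and 12 higher. Of them 0 passed limma. At an unadjusted p under 0.05 there were 4 lower and 2 higher, against 2.6% and 3.04% of all clusters. In 5 of them the groups were apart and lower and in 3 apart and higher, against 6.80% and 6.81% of all clusters. ETS2, a transcription factor gene, differed by -0.80 (SE 0.20) and PLAUR, the urokinase receptor gene, by 0.90 (SE 0.17), the smallest p-values of the list. Wnt antagonists and surface modulators outside the members, such as the SFRP and RSPO families, had a median of 0.027 over 23 measured genes, with 10 lower and 13 higher and 0 past limma (0 at an unadjusted p under 0.05). Of these 23, 11 were among the dimmest 40% of clusters. RSPO2, a secreted enhancer of Wnt signalling, had the smallest p of them, with a difference of 0.33 (SE 0.15), and was dim.

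Components of the destruction complex and Dishevelled had a median of 0.047 over 14 measured genes, and beta-catenin with its nuclear partners -0.051 over 16, with 11 lower and 5 higher. In both lists 0 passed limma, and at an unadjusted p under 0.05 there were 0 and 1, the latter CTNNB1, against 5.64% of all clusters. Groups were apart and lower for 1 of 14 and 2 of 16 genes, CTNNB1 among the 2, against 6.8% of all clusters. They were apart and higher for 1 of 14 and 0 of 16, against 6.81%. AMER1, which anchors the destruction complex at the membrane, differed by -0.51 (SE 0.24) with overlapping groups, and by -0.67 to -0.25 with an array left out. APC differed by -0.27 (SE 0.14), with groups apart and lower.

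**Figure D5:**
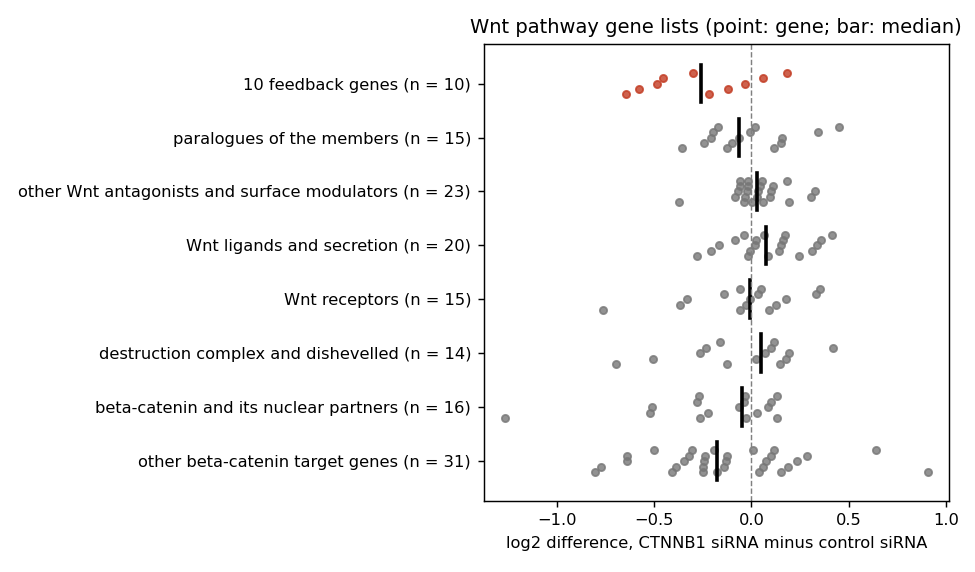
Log2 difference (horizontal axis, CTNNB1 siRNA minus control siRNA) of every measured gene in 8 lists of Wnt pathway genes; points are genes and black bars medians. The median of the 10 feedback genes is -0.26 and that of the 31 other target genes -0.18, and the other 6 medians lie between -0.066 and 0.074.

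The pattern of AXIN2 over the 6 arrays was compared with that of 9257 genes at or above the median level, by the root mean square difference after each gene's own mean was subtracted. The smallest values belonged to SNRNP40, a spliceosome gene (0.063), TRNT1, which adds the CCA end to transfer RNAs (0.069), MRM1, a mitochondrial RNA methyltransferase gene (0.079), FAM53C (0.082) and MAGOHB, an exon junction complex gene (0.082). SNRNP40 read 8.48, 8.29 and 8.23 on the controls and 8.10, 7.92 and 7.92 after CTNNB1 siRNA. SP5 ranked 29 of 9257 (0.12), RNF43 1128 (0.22), ZNRF3 2700 (0.27), NOTUM 5379, DKK1 5970, NKD1 6474 and CTNNB1 itself 7588 (0.46). The measure depends on the size of the change as well as on its pattern. NKD2, APCDD1 and DKK4 were below the median level and were not ranked.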

How the data were processed

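The authors deposited 1 log2 value per transcript cluster and array (Affymetrix Human Gene 1.0 ST). The submitters' processing notes name RMA and Affymetrix Expression Console 1.1. The log2 scale was read from the range of the values, and the genome build is not given in the sources used here. RMA sets all arrays to a common distribution, so a shift shared by all genes is not visible. Levels of different clusters depend on their probes, so members were not ordered by level; mean levels served only to call clusters dim, to choose the genes compared with AXIN2 and to read cell type markers. From 500 ng RNA per array, per the labels' protocols, 33297 clusters were listed, of which 19460 had exactly 1 gene symbol and were tested; 1754 with several symbols and 12083 not listed with a gene were left out. Symbols were updated by gene ID through RefSeq (GRCh38.p14) for 19429 clusters, and 769 genes with more than 1 cluster were represented by the one with the highest mean. At most 43 values were identical between any pair of arrays.

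Groups were compared with limma 3.58.1 (lmFit, eBayes) in R 4.3.3, 2-sided, with Benjamini-Hochberg adjustment over all 19460 clusters, a threshold of 0.05, no filter, no weights and no block. The number of arrays limits the precision. Members and gene lists were chosen with earlier results of these data known. The text names all members and CTNNB1, up to 2 genes per list with the smallest p, any paralogue, and the 5 genes most like AXIN2; cell type markers were chosen as examples after their values were seen. Alternatives left out each array, renormalised by quantiles, subtracted array medians, or added a replicate block, array weights or a variance trend. Others left out the dimmest 40% of clusters or averaged all clusters of a gene. Averaging could not change the members, each of which had 1 cluster.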

Additional observations from a re-analysis of the deposited data

How the results depend on the processing

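The call of 0 of 10 members held under every alternative fitted, with the lowest adjusted p between 0.298 (array weights) and 0.937 and 2 to 4 members at an unadjusted p under 0.05, against 3.57% to 8.81% of all clusters; the 4 came with array weights, where that share was 8.81%. Clusters called over all genes numbered 1, and 0 to 10 with an array left out. They numbered 13 with array weights, 0 with the dimmest 40% left out (670 at an unadjusted p under 0.05) and 0 with the replicate block (1123 at an unadjusted p under 0.05). CTNNB1 differed by -1.12 with array weights and passed (adjusted p = 0.0219); its adjusted p over the other alternatives was 0.052 to 0.937. The members' median was -0.38 with the dimmest 40% left out, which drops DKK4 and APCDD1, and -0.33 to -0.18 with an array left out. Members with groups apart and lower numbered 3 to 5 with an array left out, against 10.9% to 12.9% of all clusters (6.8% with 6 arrays). With an array left out, NOTUM ranged from -0.32 to 0.094, NKD2 from -0.16 to 0.087 (0.043 without CTNNB1 siRNA replicate 1) and APCDD1 from -0.038 to 0.17, each changing sign; the other 7 members kept their sign under every alternative.

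Same-numbered arrays of the groups had deviations correlated at 0.092, 0.12 and 0.098, each array best with its own number, which is a hint from the data and not from the design. With the replicate block, 3 members (AXIN2, ZNRF3 and NKD1) had an unadjusted p under 0.05 and 0 an adjusted p under 0.05 (lowest 0.743).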

Other observations

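Wnt ligand genes, which act upstream of the feedback genes, had a median difference of 0.074 over 20 measured genes of ligands and their secretion, with 7 lower and 13 higher. In 6 of them the groups were apart and higher and in 1 apart and lower, against 6.81% and 6.80% of all clusters. None passed limma (0 at an adjusted p under 0.05). At an unadjusted p under 0.05 there were 4, all higher, against 3.04% of all clusters. WNT9B averaged 5.38 and 5.79 in control and CTNNB1 siRNA cells, a difference of 0.41 (SE 0.17), and WNT8A 4.46 and 4.82, a difference of 0.36 (SE 0.13); WNT8A was among the dimmest 40% of clusters, as were 8 of the 20.

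Among 15 Wnt receptor genes the median was -0.0091, with 8 lower and 7 higher, and 0 passed limma. An unadjusted p under 0.05 was held by 2, both lower, against 2.6% of all clusters. ROR1, a receptor tyrosine kinase-like gene for Wnt ligands, averaged 8.71 in control cells and 7.95 after CTNNB1 siRNA, a difference of -0.76 (SE 0.19), and FZD3, a Frizzled receptor gene, 7.48 and 7.11, a difference of -0.37 (SE 0.14). In both the groups were apart and lower, and in 0 receptor genes apart and higher, against 6.80% and 6.81% of all clusters.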
